A study of Arabidopsis thaliana with 6 samples.

Results

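Estradiol was compared with its solvent, DMSO, 5 h after treatment in Arabidopsis thaliana shoots in which estradiol switches on MYB112, on 4 of the 6 ATH1 arrays of the series. The members were the 2 arrays of estradiol-treated and the 2 arrays of DMSO-treated shoots of that time, joined into 2 pairs by their replicate number, and 14078 of 22746 probe sets entered the comparison. All 4 samples were shoots of 2-week-old seedlings of 1 line (MYB112-IOE, line 1, in the Col-0 background), and the inducible construct was present in the controls too. Seedlings had grown on MS agar at 22 °C under lights of 100 µmol m-2 s-1 that were never turned off, and were then moved to shaken liquid MS medium. After 16 h in liquid, one set received 10 µM β-estradiol and the other DMSO, and shoots were harvested 5 h later. The numbers are given as those of biological replicates, with no word on separate flasks, so a p-value measures only the spread between these samples. Shoots without the construct that received estradiol were not analysed here, so responses to estradiol itself and to the construct cannot be told apart. The series asks which genes respond to induced MYB112.

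MYB112 is a transcription factor of the R2R3-MYB family, a large plant family whose members bind DNA through a pair of MYB repeats and control pigment synthesis, other phenylpropanoids, cell shape and stress responses. In the estradiol system a chimeric activator is held inactive until it binds estradiol, moves to the nucleus and drives the gene of interest. Early transcript differences can include direct and indirect targets, which cannot be told apart here. A whole-shoot extract holds the RNA of many cell types. Fewer cells of a type and less RNA per cell cannot be told apart in such bulk samples.

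The lowest value was 2.14 on both arrays of pair 1 and 2.16 on both arrays of pair 2, and the array medians were 5.46 (estradiol) and 5.40 (DMSO) in pair 1 and 5.04 and 5.12 in pair 2. The pairs were therefore read as separately normalized, all differences below were taken within a pair, and levels of the 2 pairs set side by side show the deposited values only. Marker transcripts of photosynthetic tissue were high on every array: the 4 named ones (RCA, LHCB4.1, LHCB4.2 and PRK) lay between 11.60 and 13.84 on the log2 scale. Of 4 named root markers, EXPA7, EXPA18 and LBD16 stayed at or below 3.07, while PYK10, a root and hypocotyl β-glucosidase, lay between 11.34 and 12.40 on the 4 arrays. The difference of PYK10 was 0.38 in pair 1 and -0.12 in pair 2. The part of other tissues in the results below was not tested. No probe set carried the name MYB112 in the annotation used here, so its level was not analysed here.

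A single probe set stood far from the rest. Probe set 259618_at, to which no gene is assigned here, read 12.87 with estradiol and 2.70 with DMSO in pair 1, and 13.30 with estradiol and 3.27 with DMSO in pair 2. It was near the top of the range with estradiol and below the expression filter of 3.56 with DMSO. It therefore passed the filter through its estradiol arrays alone. The mean difference was 10.10 ± 0.10 on the log2 scale (SD, n = 2 pairs). Its adjusted p was 0.114, the smallest of all probe sets in limma with the replicate number as a block and Benjamini-Hochberg adjustment, and without the block it was 0.0263.

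At an adjusted p under 0.05, limma with the block called 0 of 14078 probe sets (0.0%), and 1167 (8.29%) had an unadjusted p under 0.05. The block leaves 1 residual degree of freedom. The comparison is therefore described by the size of the difference in each pair, and "higher" and "lower" below mean the estradiol array against the DMSO array of the same pair. Of all probe sets kept, 24.5% were higher and 27.5% were lower in both pairs, 34.1% took opposite directions and 14.0% showed no difference in at least 1 pair. At least 2-fold differences in both pairs were found for 33 probe sets in the higher direction (0.234%) and for 33 in the lower direction (0.234%), against 4 that differed at least 2-fold in opposite directions. Counted in each pair by itself, with those of both pairs included, 210 probe sets (1.49%) were at least 2-fold apart in pair 1 and 435 (3.09%) in pair 2. The differences of all probe sets had an SD of 0.33 in pair 1 and 0.41 in pair 2, and correlated at Pearson's r = 0.38 between pairs, a description over 14078 probe sets that share the arrays.

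**Figure D1:**
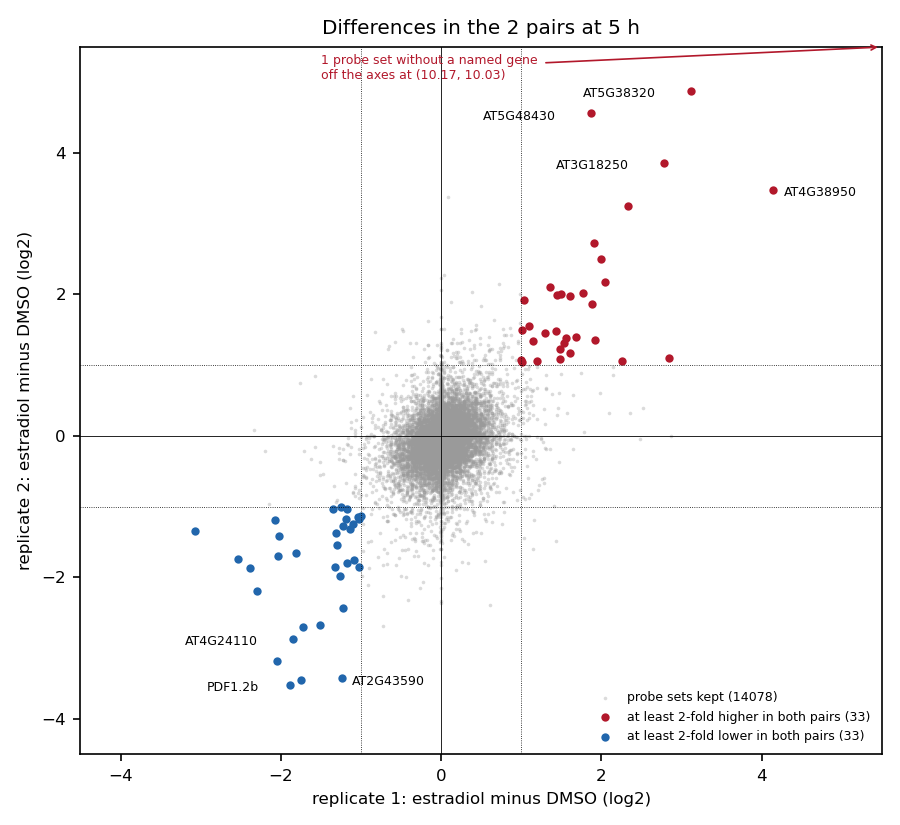
Difference of estradiol and DMSO arrays (log2) in the pair of replicate 1 (x axis) against that in the pair of replicate 2 (y axis), 1 point per probe set kept. Red and blue points are the 33 higher and 33 lower probe sets at least 2-fold apart in both pairs, dotted lines mark 2-fold, and probe set 259618_at lies off the axes at 10.17 and 10.03.

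The named gene highest by the smaller of its 2 differences was AT4G38950, which encodes a kinesin-like microtubule motor. It read 8.64 with estradiol and 4.50 with DMSO in pair 1, and 7.77 and 4.29 in pair 2, a mean difference of 3.81 ± 0.47 (SD, n = 2 pairs). Both estradiol arrays lay more than 3 log2 units above both DMSO arrays. AT5G38320 read 5.51 with estradiol and 2.39 with DMSO in pair 1, and 7.04 and 2.16 in pair 2, so that both DMSO values lay at or near the floor of the table. AT3G18250 read 7.60 and 4.82 in pair 1, and 9.29 and 5.43 in pair 2, a mean difference of 3.32 ± 0.76. The groups did not overlap for either gene.

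UGT85A2, a UDP-glycosyltransferase, was strongly expressed and differed by almost the same amount in both pairs. It read 11.40 with estradiol and 9.52 with DMSO in pair 1, and 11.26 and 9.39 in pair 2. The difference was 3.68-fold in pair 1 and 3.66-fold in pair 2, a mean of 1.88 ± 0.01 on the log2 scale. The limma adjusted p was 0.58, as for each of the other 23 genes named here by size, and it was 0.0209 when the 4 arrays were quantile normalized. UGT85A5, its neighbour on the chromosome by locus number, read 5.01 and 4.52 in pair 1 and 3.64 and 3.40 in pair 2, so the difference was 0.49 and 0.24.

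AT5G52810 (SARD4, a reductase in the synthesis of pipecolic acid, a signal of systemic resistance) read 8.53 with estradiol and 7.08 with DMSO in pair 1, and 8.41 and 6.42 in pair 2. AT5G48430, a protease of the aspartyl protease family, read 7.82 and 5.95 in pair 1, and 7.88 and 3.32 in pair 2. The differences of AT5G48430 were unequal, at 1.87 and 4.56, and its DMSO value of pair 2 was below the expression filter. AT3G22060, a secreted cysteine-rich protein with DUF26 domains, read 8.22 and 6.30 in pair 1, and 6.96 and 5.60 in pair 2.

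Among the other 5 of the 12 named genes highest by this ranking, AT5G19875 differed by 1.99 and 2.50, and AT1G54890, a protein of the late embryogenesis abundant family, by 1.91 and 2.73. AT4G20460, of the family of epimerases that make UDP-arabinose for cell walls, differed by 1.77 and 2.02. AT4G24380 differed by 1.56 and 1.38, and AT2G25530, an ATPase related to AFG1 of yeast, by 1.36 and 2.11. The ranking took only genes whose estradiol array was higher in both pairs. The rest of the 20 named genes at least 2-fold higher included AT1G12010, an ACC oxidase that makes ethylene (1.00 and 1.08), and AT2G29340, a short-chain dehydrogenase (1.2 and 1.06). AT1G12010 lay just inside the 2-fold limit, and AT1G74640, at 1.1 and 0.99, just outside it. For 15 of the 33 probe sets the DMSO value was below the expression filter in at least 1 pair. The size of those differences may depend on how low values were set, which was not tested.

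**Figure D2:**
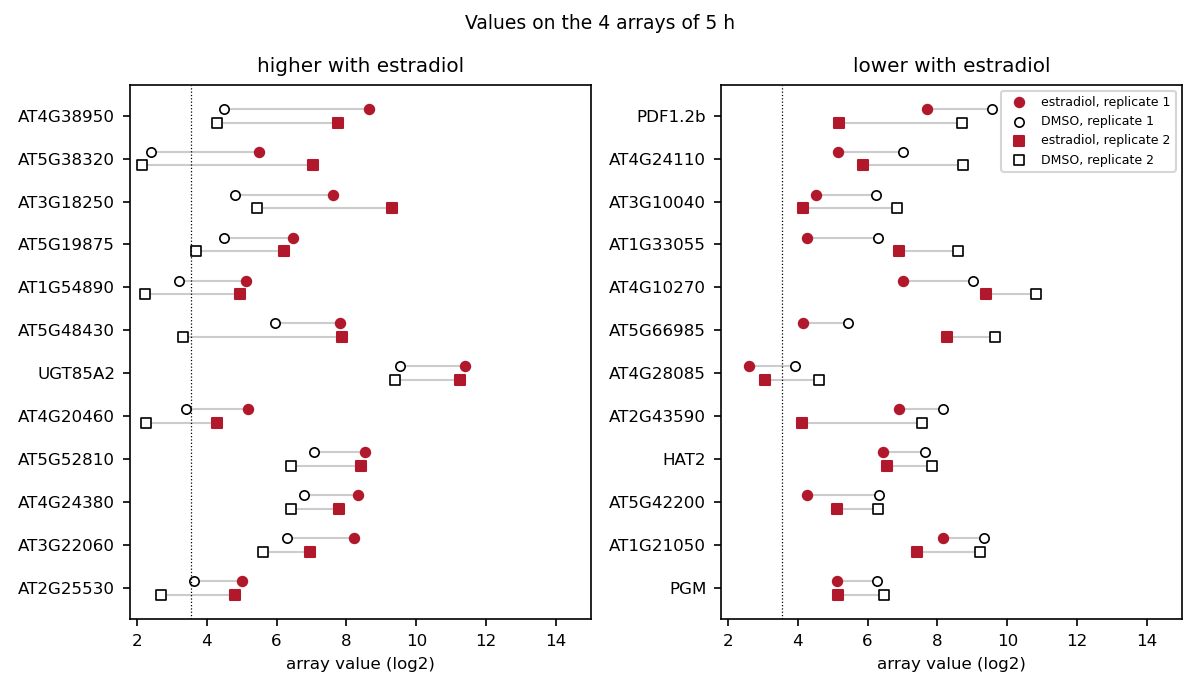
Array values (log2) of the 12 higher and 12 lower named genes ranked by the smaller of their 2 differences. Filled symbols are estradiol arrays, open symbols DMSO arrays, circles replicate 1, squares replicate 2, grey lines join a pair, and the dotted line is the filter of 3.56.

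PDF1.2b headed the named genes on the lower side. It encodes a plant defensin, a small antifungal protein known as a marker of joint jasmonate and ethylene signalling. Its probe set read 7.69 with estradiol and 9.57 with DMSO in pair 1, and 5.18 and 8.70 in pair 2, which is 3.68-fold and 11.5-fold lower. The probe set is of a type that can bind near-identical family members, so its signal may be shared with PDF1.2. PDF1.2 has a probe set of its own, which read 6.37 and 7.68 in pair 1, and 5.15 and 6.08 in pair 2, differences of -1.31 and -0.93. In both probe sets each estradiol array was below the DMSO array of its pair. PDF1.4 was at -0.06 and -1.06, so its difference lay almost wholly in pair 2.

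The 7 defensins and thionins kept did not share a direction: 3 were lower and 1 was higher in both pairs, and the group medians were -0.06 and -0.20. LCR68, a defensin-like protein, was the higher one, by 0.62 and 0.10. All genes named here had medians of 0.00 in pair 1 and -0.04 in pair 2, with 24.6% higher and 27.1% lower in both pairs. Each count below is to be read against these values. AT2G43590, of the chitinase family, read 6.91 and 8.15 in pair 1, and 4.12 and 7.55 in pair 2. The 6 chitinases kept, AT2G43590 included, were split, with 2 lower and 2 higher in both pairs. AT4G01700 was among the higher ones, at 0.81 and 0.08. AT3G47540 was the other lower one, at -0.22 and -1.80, and its estradiol value of 2.97 in pair 2 was below the expression filter.

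Of the other genes with large negative differences, HAT2, a homeodomain-leucine zipper factor known to respond to auxin, read 6.43 with estradiol and 7.65 with DMSO in pair 1, and 6.56 and 7.83 in pair 2. Its mean difference was -1.25 ± 0.04, and both estradiol arrays were below both DMSO arrays. AT5G42200, a RING-type zinc finger protein, differed by -2.07 and -1.19. AT1G21050, of the DUF617 family, differed by -1.17 and -1.80, and AT4G28085 by -1.30 and -1.55. The symbol PGM stands here for AT1G78050, a phosphoglycerate mutase, which read 5.12 and 6.26 in pair 1, and 5.14 and 6.46 in pair 2. On the lower side, 16 of the 33 probe sets had a named gene, and 8 of the 33 had an estradiol value below the expression filter. Probe set 245362_at, at -1.25 and -1.0, lay just inside the limit, and AT1G49200, at -0.99 and -1.98, just outside it.

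Of the 16 named genes at least 2-fold lower in both pairs, 5 belong to the core low-oxygen response, a set of transcripts that plants induce in many cell types when oxygen is short, through group VII ethylene response factors that are degraded in air. The list was drawn up from general knowledge after these data had been seen, so its direction is not independent evidence. Of 44 entries in the list, 21 had a named probe set, and the other entries were not analysed here. All 21 were kept, out of 7538 named genes kept in all. Of these 21 members, 13 were lower and 0 higher in both pairs. The group medians were -0.33 in pair 1 and -1.10 in pair 2.

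AT3G10040 (HRA1), a trihelix factor that restrains the low-oxygen regulator RAP2.12, read 4.52 with estradiol and 6.25 with DMSO in pair 1, and 4.15 and 6.85 in pair 2. AT4G24110 read 5.15 and 7.0, and 5.87 and 8.74. Both genes were lower by more than 3-fold in each pair. AT1G33055 read 4.26 and 6.29 in pair 1, and 6.89 and 8.59 in pair 2, and AT5G66985 read 4.14 and 5.45, and 8.26 and 9.64. For these genes the estradiol value of pair 2 was above the DMSO value of pair 1, so the difference shows only within pairs. AT4G10270, a small wound-induced protein, differed by -2.02 and -1.42.

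PDC2, a pyruvate decarboxylase that starts ethanol fermentation, read 8.63 and 9.23 in pair 1, and 9.22 and 10.03 in pair 2, a smaller difference of -0.60 and -0.81. Members that differed in pair 2 alone included AT2G17850 (0.00 and -1.82), AT3G03270 (0.00 and -0.90) and the calmodulin-like CML38 (0.05 and -1.23), a calcium sensor of hypoxia granules. AT2G17850 read 3.27 on both arrays of pair 1, below the expression filter. TIL, a temperature-induced lipocalin, was at -0.19 and -0.36. The largest difference in the other direction was 0.17, for AT5G44730 in pair 1.

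**Figure D3:**
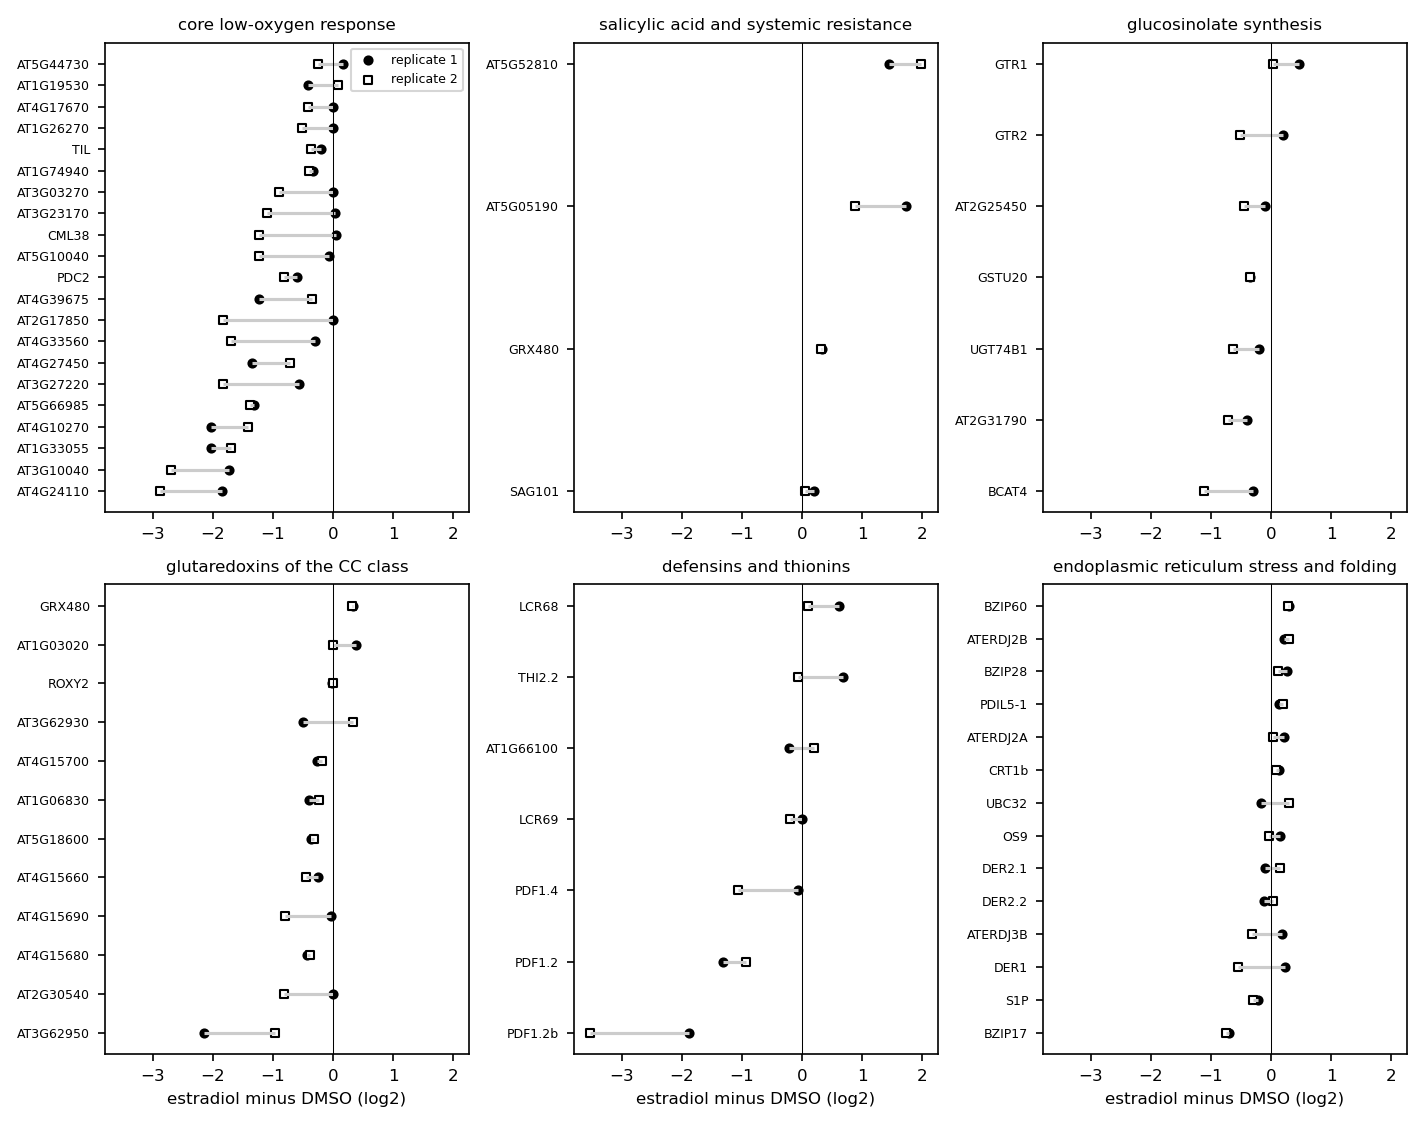
Difference of estradiol and DMSO arrays (log2) for each member kept of 6 gene groups, with filled circles for replicate 1 and open squares for replicate 2. In the low-oxygen group 13 of 21 genes lie left of 0 in both pairs, and in the salicylic acid group all 4 lie right of 0.

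Of 24 entries in the list of salicylic acid and systemic resistance genes, 4 had a named probe set, and these lay on the higher side. The other entries were not analysed here. The list was also drawn up by locus after the data had been seen. The 4 members kept were all higher in both pairs, with medians of 0.90 and 0.60. Beside AT5G52810, AT5G05190 (EDR4, which restrains resistance to powdery mildew) read 5.64 with estradiol and 3.90 with DMSO in pair 1, and 5.37 and 4.48 in pair 2. GRX480, a glutaredoxin that binds TGA factors and links salicylic acid with jasmonate signalling, was at 0.34 and 0.32. In pair 2 GRX480 read 3.28 with estradiol and 2.96 with DMSO, both below the expression filter. SAG101, a partner of the immune regulator EDS1, was at 0.21 and 0.05, within the SD of all probe sets.

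Small proteins with a TIR domain, which resemble the signalling end of plant immune receptors, were split. Of 9 kept, 3 were higher and 2 lower in both pairs, with medians of 0.29 and -0.40. AT1G66090 read 5.44 and 3.18 in pair 1, and 6.27 and 5.21 in pair 2. AT5G44910 read 5.10 and 4.07, and 6.87 and 4.95. AT1G72920 differed by 1.64 and 0.58. These 3 genes were higher in both pairs, whereas AT1G72940, at a locus near AT1G72920, was at 0.29 and -1.04.

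Among WRKY factors, which bind the W box of defence genes, 3 of 5 were higher and 0 lower in both pairs, with medians of 0.13 and 0.33. WRKY53, which promotes senescence and defence, was at 0.55 and 0.35, WRKY6 at 0.10 and 0.66 and WRKY20 at 0.13 and 0.33. WRKY22, at 0.29 and -0.20, and WRKY47, at 0.00 and -0.31, did not share this direction in pair 2. Berberine bridge enzyme-like oxidases, which oxidise oligosaccharides and monolignols in the wall, had 4 of 7 members higher and 0 lower in both pairs, with medians of 0.50 and 0.25. The 4 were AT2G34810 at 0.56 and 0.91, AT5G44400 at 0.36 and 1.23, AT5G44410 at 0.30 and 0.28, and AT4G20860 at 1.1 and 0.25.

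Calmodulin-like and touch-responsive genes, many of them calcium sensors, showed no shared direction, with 2 of 6 higher and 1 lower in both pairs. CML42 was at -0.35 and -0.39 and CML23 at 0.23 and 0.12. The zinc finger factor STZ was at 0.25 and -0.37 and CML41 at -0.62 and 0.23, so the pairs disagreed for both.

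**Figure D4:**
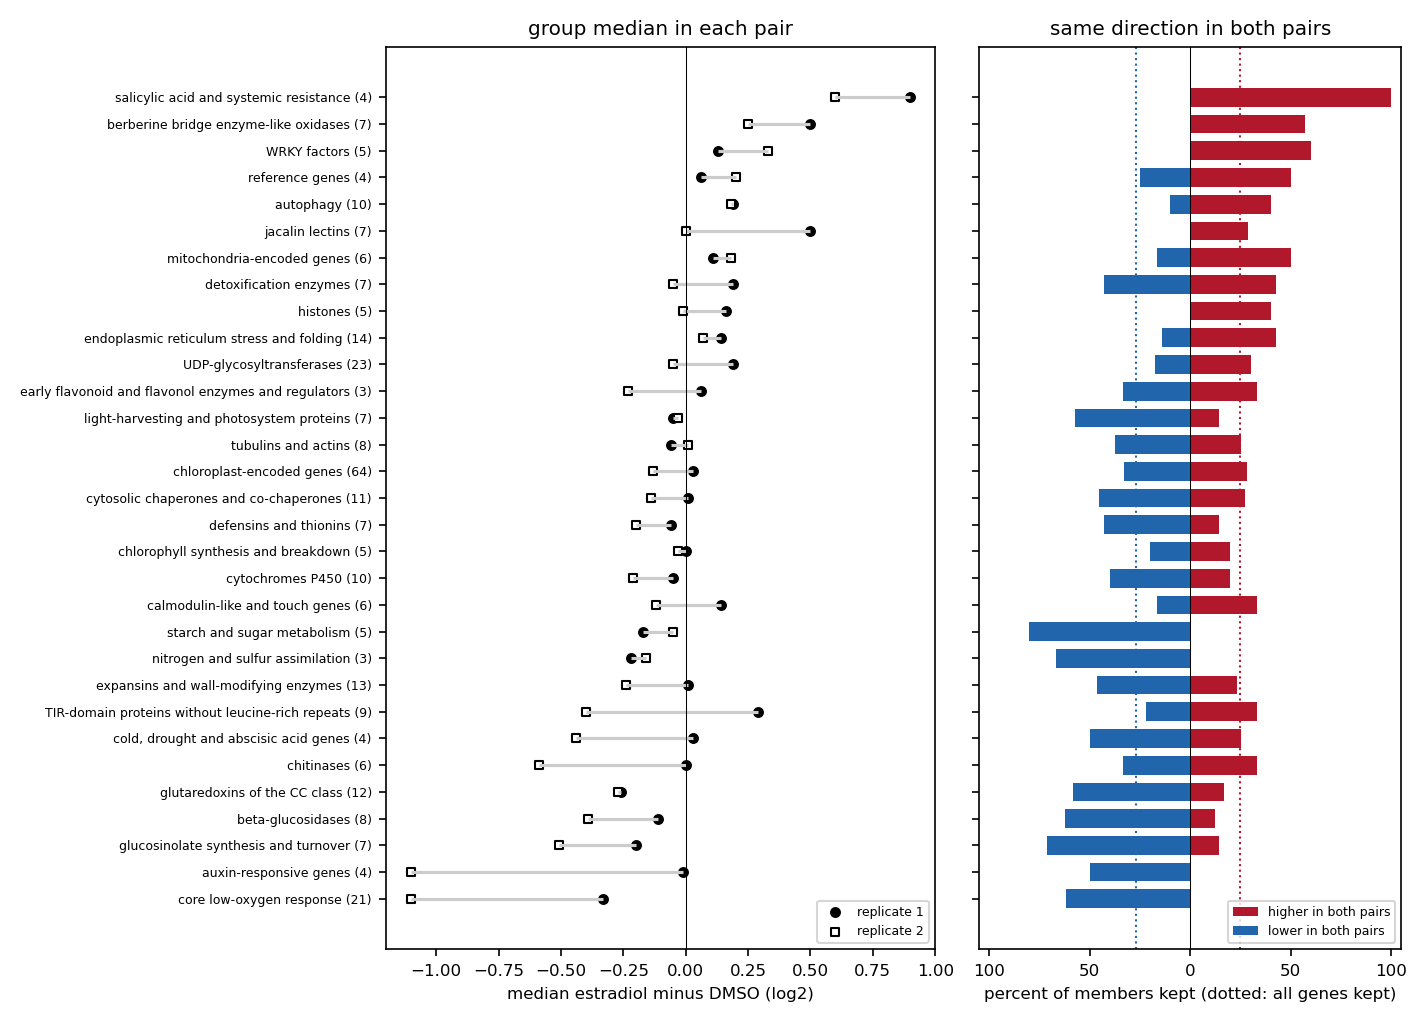
Left, median difference (log2) of each of 31 gene groups in replicate 1 (filled circles) and replicate 2 (open squares), with the number of members kept in brackets. Right, percent of members higher (red) or lower (blue) in both pairs, with dotted lines at the 24.6% and 27.1% of all named genes kept. Groups are ordered by the median of their members' mean differences, from -0.71 for the low-oxygen group to 0.82 for the salicylic acid group.

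Of 27 entries in the list of late anthocyanin enzymes and regulators, 4 had a named probe set, and the others were not analysed here. DFR, the reductase that commits flavonoids to anthocyanin, lay between 2.14 and 2.22, and UF3GT and AT5MAT, which decorate anthocyanins with sugars and acyl groups, lay between 2.14 and 2.79. BAN, the anthocyanidin reductase of seed coat tannins, lay at 2.14 to 2.16. All 4 were below the expression filter on all 4 arrays. Of the early flavonoid genes named, CHIL, a chalcone isomerase-like protein, was at -0.01 and -0.23. UGT78D1, which adds rhamnose to flavonols, was at 0.06 and 0.08, and UGT78D2, which adds glucose to flavonoids, at 0.34 and -0.36.

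AT1G23390 (KFB-CHS), a kelch F-box protein that sends chalcone synthase to degradation, read 9.62 with estradiol and 10.92 with DMSO in pair 1, and 9.45 and 10.36 in pair 2. Both estradiol arrays were below both DMSO arrays, by 2.46-fold and 1.88-fold within pairs. HCT, an acyltransferase of lignin synthesis, was at -0.36 and -0.28. UGT72E1 and UGT72E2, which glucosylate monolignols, differed in opposite directions. UGT72E1 read 8.32 and 9.20 in pair 1, and 7.68 and 8.78 in pair 2, while UGT72E2 read 5.57 and 4.45, and 3.31 and 2.74. Both values of UGT72E2 in pair 2 were below the expression filter.

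Over the 23 UDP-glycosyltransferases kept, 7 were higher and 4 lower in both pairs, and the medians were 0.19 and -0.05. Besides UGT85A2, UGT76E11 was at 1.00 and 0.26. On the lower side UGT76C2, which inactivates cytokinins by glucosylation, was at -0.60 and -0.64 and UGT85A4 at -0.48 and -0.77. The 7 detoxification enzymes kept were evenly split, with 3 higher and 3 lower in both pairs; GSTU26, a glutathione transferase, was at 0.61 and 0.38.

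Of 44 entries in the glucosinolate list, 8 had a named probe set, and most of those kept lay on the lower side. Glucosinolates are the sulfur-containing defence compounds of the cabbage order, built in this species largely from methionine and tryptophan. Of 7 genes kept, 5 were lower and 1 higher in both pairs, with medians of -0.20 and -0.51. BCAT4, the aminotransferase at the entry of methionine chain elongation, read 10.09 and 10.39 in pair 1, and 9.64 and 10.75 in pair 2. AT2G31790 (UGT74C1) and UGT74B1, which add the glucose, were at -0.39 and -0.71, and at -0.20 and -0.63. GSTU20, a glutathione transferase placed in the same pathway, was at -0.34 and -0.35, and AT2G25450, which modifies the side chain, at -0.10 and -0.44. The transporters GTR1 and GTR2 did not share this direction, at 0.47 and 0.04 and at 0.20 and -0.51.

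Sulfate assimilation, which feeds the pathway, was represented by 3 genes. APS3, an ATP sulfurylase, read 7.43 and 8.17 in pair 1, and 6.57 and 7.42 in pair 2. Its relative APS4 was at 0.47 and -0.03, and SIR, the sulfite reductase, at -0.22 and -0.16. Among β-glucosidases, which release active compounds from stored glucosides, 5 of 8 were lower and 1 higher in both pairs, with medians of -0.11 and -0.39. BGLU16 was at -0.42 and -0.73, BGLU25 at -0.41 and -0.56, and BGLU44 at -0.43 and -0.30.

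Glutaredoxins of the CC class, a land plant family of small redox proteins that act with TGA factors, were lower in both pairs in 7 of 12 cases and higher in 2, with medians of -0.26 and -0.27. AT3G62950 read 2.71 and 4.86 in pair 1, and 2.62 and 3.59 in pair 2, both estradiol values being below the filter. AT4G15680 (-0.43 and -0.38), AT4G15660 (-0.25 and -0.45) and AT5G18600 (-0.37 and -0.31) showed smaller, even differences. GRX480, described above, was on the other side. AT4G15660, AT4G15680, AT4G15690 and AT4G15700 lie at neighbouring loci and are similar in sequence, so their probe sets may share signal.

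The membrane-tethered factors of the unfolded protein response did not share a direction. This response raises the folding capacity of the endoplasmic reticulum. BZIP17 read 6.06 with estradiol and 6.76 with DMSO in pair 1, and 5.97 and 6.72 in pair 2, a mean difference of -0.72 ± 0.04. S1P, the protease that releases BZIP17 and BZIP28 from the membrane, was at -0.21 and -0.30. BZIP28 was at 0.27 and 0.12, and BZIP60, which is activated by splicing of its RNA, was at 0.31 and 0.29. Of the 14 genes of this group, 6 were higher and 2 lower in both pairs, with medians of 0.14 and 0.07.

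In the cytosol, the HSP90 co-chaperone Hop3 read 4.80 and 3.98 in pair 1, and 4.49 and 3.74 in pair 2, and Hop2 was at 0.38 and 0.17. Fes1B and Fes1C, exchange factors of HSP70, were lower by 0.95 and 0.15 and by 0.31 and 0.22 respectively. Over the group, 3 of 11 genes were higher and 5 lower in both pairs. Of 10 autophagy genes, 4 were higher and 1 lower in both pairs, with medians of 0.19 and 0.18. The ubiquitin-like ATG8 proteins coat the autophagosome, and ATG8H, the member with the largest difference, read 5.94 and 5.24 in pair 1, and 6.57 and 6.04 in pair 2.

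Growth-related genes followed no common pattern. Of 4 auxin-responsive genes, 2 were lower and 0 higher in both pairs, with HAT2 the larger. The other lower gene, GH3.17, was at -0.01 and -1.36, so its difference lay almost wholly in pair 2. Its estradiol value of 2.76 in pair 2 was below the expression filter. GH3.3, an enzyme that conjugates auxin to amino acids, was at 0.79 and -0.94. IAA18, a repressor of auxin signalling, was at 0.00 and 0.56. Of 13 expansins and xyloglucan endotransglucosylases, which loosen and remodel the wall, 6 were lower and 3 higher in both pairs, with medians of 0.01 and -0.24. XTH33 read 6.06 and 6.92 in pair 1, and 4.93 and 5.97 in pair 2. EXLB1 was at -0.56 and -0.30 and XTH19 at -0.56 and -0.24, whereas EXPA15 was at 0.38 and 0.17.

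SPCH and FMA, factors that start and end the stomatal lineage, differed mainly in pair 2. SPCH read 5.66 with estradiol and 5.63 with DMSO in pair 1, and 3.17 and 4.46 in pair 2. FMA read 6.12 and 6.50, and 3.41 and 4.58. In pair 2 the estradiol values of SPCH and FMA were below the expression filter. MUTE, which acts between them, stayed at or below 2.22 on all 4 arrays.

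Photosynthesis genes and starch genes differed little. Of 7 light-harvesting and photosystem proteins, 4 were lower and 1 higher in both pairs, but the medians were -0.05 and -0.03. Of 5 starch and sugar genes, 4 were lower in both pairs, with medians of -0.17 and -0.05; the sugar transporter SWEET1 stood out at -0.23 and -1.48. The 4 reference genes named were at most 0.46 from 0 in either pair. GAPC2, a glycolytic dehydrogenase used as such a reference, read 13.09 and 13.18 in pair 1, and 12.95 and 12.96 in pair 2.

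The 30 probe sets without a named gene that were at least 2-fold apart in both pairs split into 13 higher and 17 lower. After 259618_at, the highest were 253219_at, which read 6.07 and 3.74 in pair 1 and 6.03 and 2.78 in pair 2, and 260885_at, which read 4.80 and 2.76, and 4.40 and 2.22. The lowest were 258487_at, which read 6.79 and 9.09, and 9.07 and 11.27, followed by 247431_at (-2.05 and -3.18) and 245276_at (-2.39 and -1.87). The difference of 258487_at was -2.25 ± 0.07, and its limma adjusted p was 0.58, or 0.0217 after quantile normalization.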

How the data were processed

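The authors deposited 1 value per probe set and array for 6 Affymetrix ATH1 arrays on a log scale read here as log2 from its range (2.1 to 15.35), since no source used here gives the base. The submitters' processing notes list GCRMA and RMA with no version or role. Samples were grouped by the titles in the labels. Of 22810 rows, 64 control rows were left out. A probe set was kept when at least 2 of the 4 arrays of 5 h reached 3.56, the 40th percentile of the table. The filter kept 14078 (61.9%), of which 7604 have 1 gene (7538 genes) and 6474 no named gene. Names came from the platform annotation, which gave 1 gene for 13513 probe sets, several for 503 and none for 8730, and 13436 of the 13513 were updated through RefSeq tables. The probe set of highest mean stands for a gene in group counts. The values hold no measure of background, and precision is limited by the number of arrays.

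Tests used limma 3.58.1 under R 4.3.3 (lmFit and trended eBayes, two-sided, p adjusted by Benjamini-Hochberg, threshold 0.05) and the replicate number as a block, and the code was tested on simulated data. Whether the numbers pair the samples was checked first: the deviations of same-numbered arrays from their treatment means correlated at 0.911 over probe sets, and the arrays at 0.990 and 0.985 within pairs against 0.908 and 0.917 between replicates of a treatment. The pairing comes from the labels' numbers, and each pair has its own floor. Differences, medians and counts were computed with Python 3.11.15. The 12 highest and 12 lowest named genes were ranked by the smaller of the 2 differences among those of 1 direction. In each group the rule took up to 4 genes of the commoner direction, or all in groups of up to 6. It also took the 3 unnamed probe sets of each direction, the reference genes and the tissue markers. The text gives only some of the genes this rule took. Members are left out, for example, in the chlorophyll, starch, chitinase, cold, histone, mitochondrial and reference groups. Genes of a group named outside this rule, such as UGT72E1, UGT76C2, UGT85A4, BZIP17, S1P, Hop2, Hop3, GTR1, GTR2, TIL, PDC2, LCR68, EXPA15, AT1G72940, AT2G17850, AT3G03270, AT5G44730, AT2G25450, HCT, AT1G23390, AT1G12010, AT2G29340, rpl32, rpoA, JAL22 and GI, were chosen after their values were seen. The members and lists were chosen with earlier results of these data known, so no list was tested. Of 87 lists and families, 41 had at least 3 members kept, and 31 of these are described. The rest of the 41 were left out by list name. Among them was the list of ethylene and jasmonate genes, whose 3 members kept are PDF1.2, PDF1.2b and PDF1.4. No named member was found for 26 of the 87. The alternatives were no block, no trend, other filters, quantile normalization, centred arrays, other fold limits, means in place of medians, and leaving out each pair. Arrays of 3 h enter only as values. No sequences or coordinates were used here.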

Additional observations from a re-analysis of the deposited data

Results flagged for a closer look

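At 3 h there was 1 array per treatment, and 7 of the 66 probe sets at least 2-fold apart in both pairs at 5 h had the other sign there. The difference between the times was not tested, and the 7 values at 3 h ran from -0.39 to 0.46. AT1G66090, a TIR-domain protein, was at -0.39 at 3 h against 2.26 and 1.06 at 5 h, and PDF1.2b at 0.46 against -1.88 and -3.52. AT3G18560 was at -0.02 at 3 h against 1.48 and 1.09. The probe sets without a named gene were 252101_at (-0.04 at 3 h, 1.68 and 1.4 at 5 h), 247573_at (0.40, then -1.10 and -1.24), 256751_at (0.16, then -1.03 and -1.17) and 264872_at (0.24, then -1.32 and -1.85). Among the 33 higher probe sets, 24 had the same sign at 3 h, 3 the other sign and 6 no difference, beside 36.2% of all probe sets higher at 3 h. Among the 33 lower ones, 28 had the same sign, 4 the other and 1 no difference, beside 50.3% of all lower at 3 h.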

How the results depend on the processing

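limma with the replicate block called 0 probe sets and the smallest adjusted p was 0.114. Without the replicate block it called 1 (0.0263), with a filter at the 60th percentile 1 (0.0175), and after quantile normalization 3 (7.71e-05); 259618_at was called in all of these, UGT85A2 and 258487_at after quantile normalization alone. No other call changed without the block. With no trend or no filter the count was 0, with 1156 and 1223 probe sets at an unadjusted p under 0.05. Leaving out a pair leaves no residual degree of freedom, so no test. The 33 higher and 33 lower probe sets became 128 and 118 at 1.5-fold and 12 and 10 at 3-fold, and 18 were higher with the filter on all 4 arrays. With 1 pair left, 126 to 161 were higher and 84 to 274 lower.

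Group medians over the mean of both pairs moved as follows, beyond the SD of the pair medians. By centring, and by quantile normalization, light-harvesting genes went from -0.04 to -0.02 in both, chlorophyll genes from -0.10 to -0.07 in both, autophagy from 0.13 to 0.15 and 0.14, and CC glutaredoxins from -0.32 to -0.30 and -0.31. With the filter on all 4 arrays, salicylic acid genes moved from 0.82 to 1.31, chitinases from -0.29 to 0.27, defensins from -0.10 to -0.33 and CC glutaredoxins to -0.34. With no filter, wall enzymes (-0.20), cytochromes P450 (-0.13), β-glucosidases (-0.32) and berberine bridge enzymes (0.29) went to 0.00. CC glutaredoxins then went to -0.15 and mitochondrial genes from 0.10 to 0.01. Genes that the filter leaves out enter in this setting, and their part in the shifts was not tested. Means over members were -0.06 for chlorophyll, -0.25 for nitrogen and sulfur, 0.14 for autophagy, 0.30 for TIR-domain proteins (median -0.21), -0.54 for defensins, -0.30 for CC glutaredoxins, 0.01 for endoplasmic reticulum and 0.04 for mitochondrial genes.

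With 1 pair left, the medians ran from -0.23 to 0.06 for early flavonoid genes, -0.24 to 0.01 for wall enzymes, -0.05 to 0.19 for UDP-glycosyltransferases, -0.39 to -0.11 for β-glucosidases, -0.12 to 0.14 for touch genes, -0.05 to -0.03 for light-harvesting, -0.03 to 0.00 for chlorophyll, -0.17 to -0.05 for starch, 0.18 to 0.19 for autophagy, -0.06 to 0.01 for tubulins, -0.40 to 0.29 for TIR-domain proteins, 0.25 to 0.50 for berberine bridge enzymes, 0.60 to 0.90 for salicylic acid, -0.20 to -0.06 for defensins, -0.27 to -0.26 for CC glutaredoxins, 0.07 to 0.14 for endoplasmic reticulum, 0.00 to 0.50 for jacalins and 0.11 to 0.18 for mitochondrial genes. The low-oxygen median ran from -1.10 to -0.33. Of the 31 medians, 4 changed sign without replicate 1 and 7 without replicate 2, and of 140 named values 8 and 8. The cause of these shifts was not tested.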

Other observations

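Organelle-encoded transcripts showed no shared direction at 5 h. Of 64 chloroplast-encoded genes kept, 18 were higher and 21 lower in both pairs, with medians of 0.03 and -0.13. ndhK, a subunit of the plastid NDH complex, was at -0.76 and -1.38, psaA, a core subunit of photosystem I, at -0.39 and -0.55, and psbC, an antenna protein of photosystem II, at -0.31 and -0.31. In the other direction, rpl32, a plastid ribosomal protein, was at 0.66 and 1.64, and rpoA, a subunit of the plastid RNA polymerase, at 0.61 and 0.56. Of 6 mitochondria-encoded genes, 3 were higher and 1 lower in both pairs; nad9, of complex I, was at 0.92 and 0.25 and cox1, of cytochrome oxidase, at -0.13 and -1.35.

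Cold-responsive genes were split. COR47, a dehydrin, read 10.93 with estradiol and 10.51 with DMSO in pair 1, and 11.18 and 10.57 in pair 2, while COR15B, which protects chloroplast membranes in the cold, was at -0.27 and -0.19. Of 10 cytochromes P450 kept, 4 were lower and 2 higher in both pairs, with CYP71B5 at -0.19 and -0.68. Of 7 jacalin-type lectins, sugar-binding proteins of defence, 2 were higher and 0 lower in both pairs; AT1G52000 was at 1.13 and 0.63 and JAL22 at 1.04 and -0.30. Of 5 genes of chlorophyll metabolism, HEMA2 was at 0.10 and 0.14 and CHLM at -0.23 and -0.03. Histones (2 of 5 higher, 0 lower) and tubulins and actins (2 of 8 higher, 3 lower) had medians between -0.06 and 0.16. GI, a clock protein, read 7.28 and 7.61 in pair 1, and 7.71 and 8.30 in pair 2.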
